A study of Drosophila melanogaster with 6 samples.

Results

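Translation initiation factors were examined in heart/nephrocyte complexes of adult female Drosophila melanogaster after feeding on an amino sugar or on a high amount of ordinary sugar. The members were the genes whose single symbol in the platform annotation starts with eIF, with the exception of eIF6, and where a gene had several probe sets, that with the highest mean over the 6 arrays stood for it. This gave 39 genes of 16702 genes and unnamed probe sets on the array, and all 39 passed the filter on low intensity that left 10022 for testing. They comprised 6 genes of eIF2 and its exchange factor eIF2B, 16 of eIF3, 12 of eIF4 and 5 others, namely eIF1, eIF2A, eIF2D, eIF5 and eIF5B. The RefSeq table lists 44 genes with such a symbol, and eIF2alpha, eIF2gamma, eIF1A and eIF4H1 were not analysed here. RNA of the complexes was hybridised to single-channel Affymetrix arrays, 3 for each diet. One group had fed for 21 days on food with glucosamine added at 0.1 M, and the other for the same 21 days on food with sucrose added at 1.0 M. The labels name 30 adult females, give no strain and do not tell whether each array had flies of its own. The p-values therefore set the diet difference against the spread among these arrays only, and that spread may be technical. No standard-food group was analysed here, and the diets differ in both the kind and the concentration of sugar.

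Initiation is the step at which a ribosome is loaded onto an mRNA. The cap-binding protein eIF4E, the scaffold eIF4G and the helicase eIF4A form the complex that recruits the mRNA, while eIF2 brings the initiator tRNA to the small ribosomal subunit and eIF3 holds the assembly together. After each round eIF2 is recharged with GTP by eIF2B, and kinases that phosphorylate the alpha subunit of eIF2 block this recharging under stress. eIF1 and eIF5 act in start codon selection, and eIF5B joins the ribosomal subunits.

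The complex is a mixture of heart, nephrocyte and attached cells, so fewer cells of a type and less RNA per cell cannot be told apart in any value below. The upper quartile of intensity was between 222 and 237 on all 6 arrays. Hand, from the list of heart markers, fell in glucosamine-fed flies (limma adjusted p = 0.0240). It was at 7976 to 9942 in glucosamine-fed and 12941 to 16538 in sucrose-fed flies. The other heart markers tested, pnr and tup, differed by 0.02 and −0.18 and did not pass (adjusted p = 0.957 and 0.746), and tin, Mhc and Mef2 were not analysed here. Of the nephrocyte markers, 5 of 6 fell in glucosamine-fed flies, so that the summed intensity of this list was 4542 to 6532 against 17681 to 25451 in sucrose-fed flies. The summed fat body markers were 69636 to 75589 against 71129 to 86472, the hemocyte markers 4289 to 7985 against 4714 to 7019, the neuron and glia markers 541 to 831 against 591 to 819, and the epidermis markers 22.7 to 31.4 against 27.1 to 31.2. A pair of arrays stood apart. The ovary markers summed to 7476 on sucrose array 1, against 348 to 1006 on the other 5 arrays. On that array osk was at 6355, most of the sum, the eggshell gene Cp36 at 988 and the germline gene bam at 18.6. Vm26Aa was at 44.4 and Cp18 at 64.4. Each of these was at its highest value over the 6 arrays, but Cp18 was also at 64.1 on sucrose array 3. The defining germline marker vas was at 5.36 to 5.91 on all 6, and both vas and bam were too dim to be tested. The gut markers summed to 5305 on glucosamine array 3 against 80.7 to 647 elsewhere. Results are therefore also given without both of these arrays, a setting chosen after seeing the data, and the part of the shifting markers in them was not tested.

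Of the 39 initiation factor genes, 1 rose in glucosamine-fed flies, 3 fell and 35 did not pass an adjusted p of 0.05 (limma with Benjamini-Hochberg adjustment over all 10022 tested). The gene that rose was eIF2beta, and those that fell were eIF3i, eIF3e and eIF3l. Of everything tested 18.6% was called, 9.92% as higher and 8.64% as lower, against 2.56% and 7.69% of the members, so the share of members called lower was near the background and the share called higher was below it. The 3 glucosamine arrays lay entirely above the sucrose arrays for 3 members and entirely below for 11, against 18.9% and 20.0% of everything tested (39.0% together), and overlapped for 25. Each difference below is log2(intensity + 16) in glucosamine-fed less that in sucrose-fed flies, a scale that compresses changes of dim probe sets. The median difference was −0.17 over the 39 members and −0.03 over all tested genes. For 29 of the 35 genes that did not pass, the 95% interval of the difference lay within a factor of 2 either way on this scale. The other 6 were eIF2Bepsilon, eIF3f2, eIF4E3, eIF4E4, eIF4E5 and eIF4EHP, whose intervals reached beyond it. The 29 include eIF3d2, eIF3g2, eIF4E6, eIF4E7 and eIF4H2, which were below 100 on every array. The compressed scale makes the bound easy to meet for such dim probe sets. Without both arrays that stood apart none of the 39 passed (limma), while 211 of all tested genes were called higher and 120 lower.

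**Figure D1:**
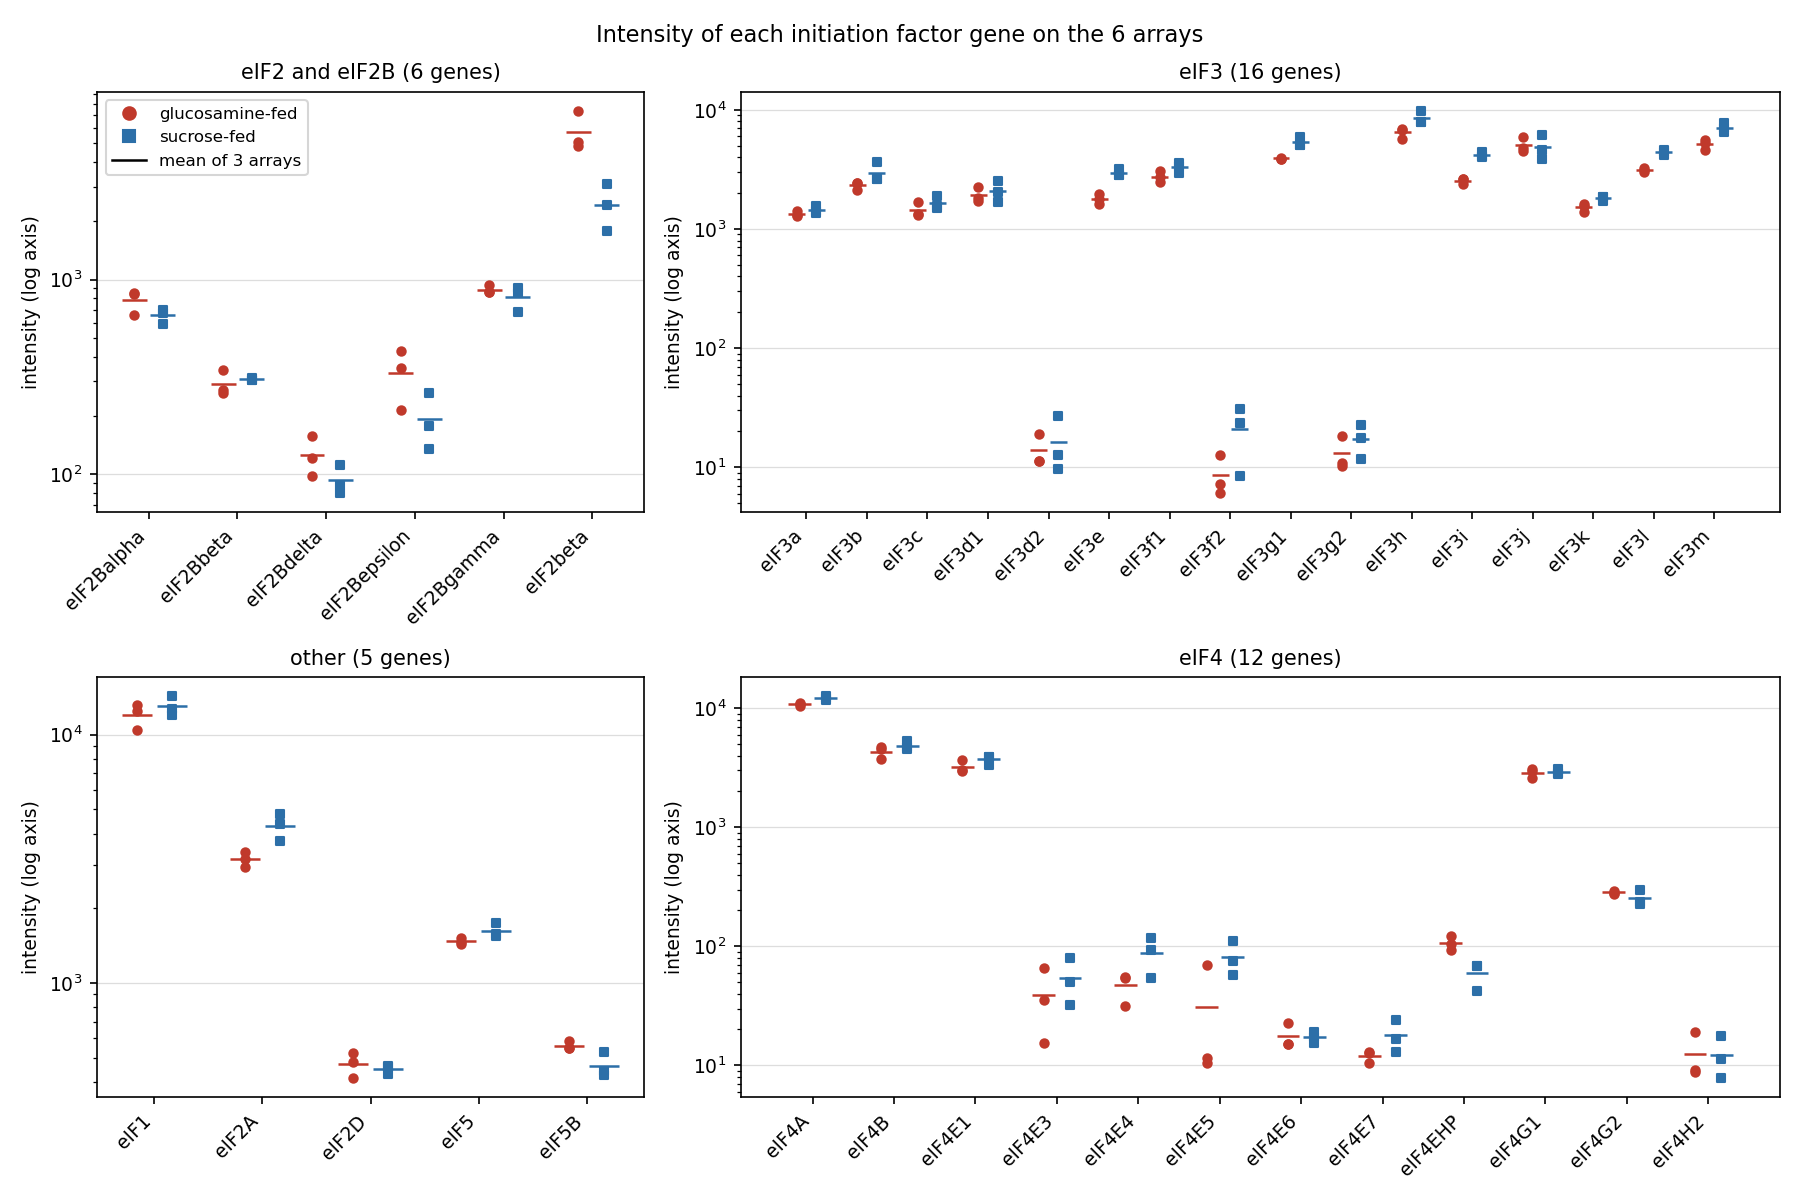
Intensity (log axis) of each of the 39 genes on the 6 arrays, in 4 panels by factor, with circles for glucosamine-fed and squares for sucrose-fed flies and a line at each mean of 3 arrays. The 3 glucosamine arrays of eIF2beta lie above its sucrose arrays, those of eIF3e, eIF3i and eIF3l lie below, and the paralogs eIF3d2, eIF3f2 and eIF3g2 lie at or below 30.7. Levels of different genes cannot be set against each other, because each has its own probes.

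eIF2beta, the gene of the eIF2 subunit that contacts eIF5 and eIF2B, was the member that rose. Its intensity was 4851, 5067 and 7324 on the glucosamine arrays and 2400, 3100 and 1766 on the sucrose arrays (probe set 1636176_at). The groups did not overlap, with glucosamine array 3 the highest and sucrose array 3 the lowest. The means were 5747 ± 1369.7 and 2422 ± 667 (SD, n = 3 each), a ratio of 2.37, and the log2 difference was 1.25 ± 0.26 (SE; limma adjusted p = 0.0208). The call was lost without glucosamine array 1, glucosamine array 3 or sucrose array 1 (limma adjusted p = 0.0570, 0.0573 and 0.0575). It was also lost without a filter (0.0659) and with a block for the replicate number (0.0670). The adjusted p ran from 0.0141 to 0.0670 over 16 alternatives. Without both arrays that stood apart the difference was 1.08 (adjusted p = 0.123), and glucosamine array 3, on which eIF2beta was highest, was also the array with the high gut markers.

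None of the 5 subunit genes of eIF2B passed, either with adjustment in limma or at an unadjusted p under 0.05. Of everything tested 32.9% had such an unadjusted p. The subunits gamma and epsilon form the catalytic part of this exchange factor, and alpha, beta and delta the regulatory part that senses phosphorylated eIF2. eIF2Bepsilon had the largest difference of the 5, 0.74 ± 0.32 (SE; limma adjusted p = 0.163), with intensities of 213 to 429 against 134 to 262. eIF2Bdelta differed by 0.36, eIF2Balpha by 0.25, eIF2Bgamma by 0.13 and eIF2Bbeta by −0.08, and all 5 had overlapping groups. The groups were separated for 39.0% of everything tested. The differences of eIF2 and eIF2B together were positive for 5 of 6 genes, in the fit reported and under quantile normalization, median centring and cyclic loess alike, with a median of 0.30. In the fit reported 16.7% of the 6 were thus negative, against 53.6% of all tested genes. By array, the median of these 6 genes relative to their sucrose means was 0.08, 0.27 and 0.52 in glucosamine-fed and 0.01, 0.13 and −0.21 in sucrose-fed flies, so that glucosamine array 1 lay below sucrose array 2.

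eIF3 is the largest initiation factor, and in animals its core is an octamer of subunits with PCI or MPN domains, to which b, g and i are attached as a module while d and j bind at the edge. Of its 16 genes 3 fell, none rose and 13 did not pass, and 6 (37.5%) had an unadjusted p under 0.05, all of them lower, against 32.9% of everything tested in either direction (16.3% lower, 16.6% higher). The share called lower was 18.8%, against 8.64% of everything tested. The difference was negative for 15 of the 16, against 53.6% of all tested genes, and the median was −0.30. Without the 3 dim paralogs it was negative for 12 of 13, with a median of −0.33. Under cyclic loess 14 of 16 were negative, with a median of −0.21, and under quantile normalization 15 of 16 with −0.25. Without sucrose array 1 it was 13 of 16, with a median of −0.26. Of the 8 octamer genes 2 fell, with a median of −0.33, and of b, g1 and i 1 fell, with a median of −0.45, while d1 and j had none called. In 8 of the 16 all glucosamine arrays lay below all sucrose arrays, against 20.0% of everything tested. None of the 16 passed without glucosamine array 1, 1 passed without glucosamine array 3 or without sucrose array 1, and none passed without both arrays that stood apart, where the median was −0.28. The summed nephrocyte markers were lower on the same 3 glucosamine arrays, and their part in the eIF3 values was not tested.

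eIF3i, a WD-repeat subunit that sits with eIF3b and eIF3g, had the smallest p of all members. Its intensity was 2389, 2629 and 2604 on the glucosamine arrays and 4401, 4058 and 4034 on the sucrose arrays (probe set 1630519_at). All 3 glucosamine values lay well below the lowest sucrose value, and the spread within each group was small. The means were 2541 ± 132 and 4164 ± 205 (SD, n = 3 each), so glucosamine-fed flies had 61.0% of the sucrose level, with a log2 difference of −0.71 ± 0.13 (SE; limma adjusted p = 0.0138). The call was lost without glucosamine array 1 (limma adjusted p = 0.0549) and with a block for the replicate number (0.0609). The adjusted p ran from 0.00921 to 0.0609 over 16 alternatives. Without both arrays that stood apart the difference was −0.69 (adjusted p = 0.0988).

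eIF3e, also known as Int6, is a PCI-domain subunit of the octamer. Its intensity was 1614, 1979 and 1770 on the glucosamine arrays and 3173, 2832 and 2825 on the sucrose arrays (probe set 1640174_at). The groups were separated by more than the whole range of either. The means were 1788 ± 183 and 2943 ± 199 (SD, n = 3 each), or 60.7% of the sucrose level, with a log2 difference of −0.72 ± 0.14 (SE; limma adjusted p = 0.0183). The call was lost without glucosamine array 1, glucosamine array 3 or sucrose array 1 (limma adjusted p = 0.0676, 0.0539 and 0.0574). It was also lost with a block for the replicate number (0.0696), and the adjusted p ran from 0.0137 to 0.0696 over 16 alternatives. Without both arrays that stood apart the difference was −0.66 (adjusted p = 0.126).

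eIF3l is a further PCI-domain subunit, which binds next to eIF3k. Its intensity was 3121, 3267 and 3027 on the glucosamine arrays and 4466, 4186 and 4622 on the sucrose arrays (probe set 1631527_at). Again the groups did not overlap. The means were 3138 ± 121 and 4425 ± 221 (SD, n = 3 each), or 70.9% of the sucrose level, with a log2 difference of −0.49 ± 0.13 (SE; limma adjusted p = 0.0396). This call was the least stable of the 4, since it was lost in each of the 6 fits without 1 array (limma adjusted p = 0.0694 to 0.108). It was also lost under quantile normalization, cyclic loess and a pseudocount of 1 (adjusted p = 0.0786, 0.0796 and 0.0721). With a block for the replicate number it was lost too (0.1205), and the adjusted p ran from 0.0145 to 0.1205 over 16 alternatives. Its direction was the same in all 16 alternatives, at −0.54 to −0.38.

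The other subunits of the octamer and of the b, g and i module did not pass, although all of them had a negative difference. eIF3h, an MPN-domain subunit and the eIF3 gene with the highest mean intensity, had intensities of 5687, 6954 and 6823 against 9757, 7877 and 7830. Its groups did not overlap, and the log2 difference was −0.38 ± 0.16 (SE; limma adjusted p = 0.150). eIF3g1, an RNA-binding subunit, had 3846 to 3971 against 5087 to 5898 (−0.45, adjusted p = 0.0572), and it passed under median centring, without a filter and with a variance trend. eIF3m, which completes the octamer, had 4600 to 5622 against 6473 to 7697 (−0.46, adjusted p = 0.0772). eIF3b, the scaffold of the module, had 2135 to 2440 against 2636 to 3632 (−0.33), and eIF3k had 1389 to 1608 against 1730 to 1870 (−0.26). These 5 genes had separated groups as well. The groups overlapped in the MPN-domain subunit eIF3f1 (−0.27) and in the large scaffold subunits eIF3c (−0.20) and eIF3a (−0.11).

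The subunits at the edge did not pass, and their groups overlapped. eIF3d1, which can bind the cap of certain mRNAs in mammals, had 1729 to 2233 against 1670 to 2533, a difference of −0.10 with a 95% interval of −0.57 to 0.38. eIF3j, a loosely bound subunit, had 4483 to 5896 against 3881 to 6099, a difference of 0.08 with an interval of −0.42 to 0.58. The interval of eIF3d1 includes the difference of eIF3l, so it does not exclude a fall of that size, while the interval of eIF3j ends short of it. With 3 arrays a group the SEs of eIF3d1 and eIF3j were alike, at 0.20 and 0.21. The paralogs eIF3d2, eIF3f2 and eIF3g2 lay at 6.12 to 30.7 on all arrays, close to the array medians of 14.8 to 17.4, and their differences of −0.09, −0.54 and −0.19 were between values near the lower end of the scale. eIF3f2 passed in 1 of 15 alternatives, that without sucrose array 3 (limma adjusted p = 0.0493).

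**Figure D2:**
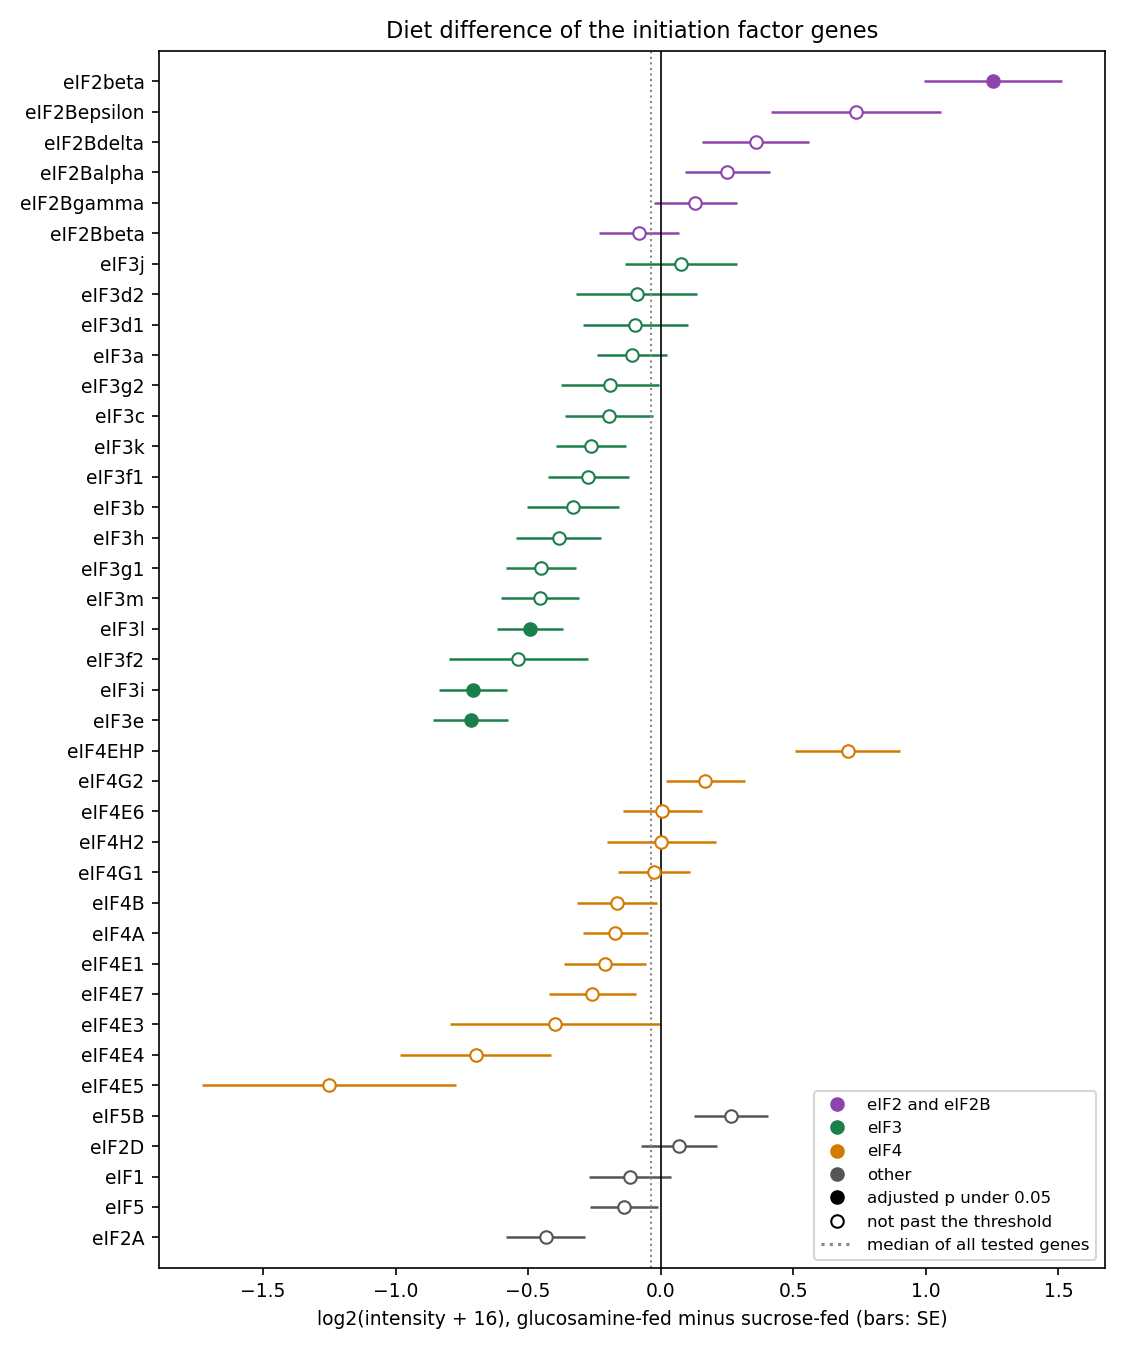
Difference of each gene between the diets, as log2(intensity + 16) in glucosamine-fed minus sucrose-fed flies, with the SE of the fit as bars, coloured by factor. Filled points mark adjusted p under 0.05, which are eIF2beta at 1.25, eIF3l at −0.49, eIF3i at −0.71 and eIF3e at −0.72, and the dotted line is the median of all tested genes at −0.03.

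None of the 12 eIF4 genes passed in limma, and 3 had an unadjusted p under 0.05, eIF4EHP higher and eIF4E4 and eIF4E5 lower, a smaller share than the 32.9% of everything tested. eIF4EHP encodes a cap-binding protein that does not bind eIF4G and represses the mRNAs it holds, such as caudal and hunchback in the fly embryo. Its intensity was 121, 105 and 93.0 on the glucosamine arrays and 68.9, 68.4 and 42.2 on the sucrose arrays. The groups did not overlap, and the log2 difference was 0.70 ± 0.20 (SE; limma adjusted p = 0.0512, with 0.0398 to 0.155 over 16 alternatives). It passed with the filter on 60% and with array weights. A second probe set of eIF4EHP had 31.4 to 41.3 against 30.3 to 43.0 and differed by 0.04, so the higher level was seen in 1 of its 2 sets.

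The general cap-binding, helicase and scaffold genes did not pass. eIF4A, the RNA helicase of the complex and the eIF4 gene with the highest mean intensity, had intensities of 10760, 10497 and 11156 against 12589, 11813 and 12122. Every glucosamine value was below every sucrose value, with means of 10804 ± 332 and 12175 ± 391 (SD, n = 3 each), and the difference of −0.17 did not pass (limma adjusted p = 0.374; 95% interval −0.46 to 0.12). eIF4E1, the main cap-binding protein, had 2971 to 3686 against 3341 to 3914 (−0.21, interval −0.58 to 0.16). eIF4G1, the scaffold, had 2612 to 3068 against 2816 to 3117 (−0.03, interval −0.35 to 0.30). eIF4G2, its testis paralog, had 276 to 294 against 225 to 295 (0.17).

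The array carries control probe sets along the eIF-4a transcript, so the result for eIF4A can be set beside its position. The 3′ control had 11283 to 11581 in glucosamine-fed and 12537 to 13580 in sucrose-fed flies, a difference of −0.18, which is close to that of the gene's own probe set. The middle control had 5030 to 6687 against 7609 to 8188, a difference of −0.46. The 5′ control had 1132 to 1822 against 2598 to 2914, a difference of −0.92. All 3 controls were lower on every glucosamine array, and the difference was larger towards the 5′ end. The 5′ minus 3′ signals of GAPDH and of 18S rRNA were also lower on all glucosamine arrays, with differences of −0.15 and −0.12. The 5′ minus 3′ signals of the other 3 controls overlapped between the diets, with differences of −0.27 for an actin set, −0.18 for a second GAPDH set and 0.60 for Act5C. The part of this 5′ to 3′ difference in the lower eIF3 values was not tested, and the positions of the eIF3 probes were not analysed here.

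eIF4B, which stimulates the helicase, had 4 probe sets that disagreed. The set used, 1640194_a_at, had 3742, 4514 and 4705 against 4506, 5300 and 4698 and differed by −0.17 (limma adjusted p = 0.496). The sets 1640653_at and 1636358_a_at also had overlapping groups, at 0.23 and −0.23. The set 1629261_at had 153, 144 and 209 on the glucosamine arrays against 57.7, 76.2 and 82.0, with no overlap. Its difference was 1.06, and it passed when every probe set was fitted separately (limma adjusted p = 0.0146), an alternative added after seeing the data. In that fit 2 of 43 member probe sets were higher, this one and that of eIF2beta, and 3 were lower, against 9.52% and 8.27% of all 11021 probe sets tested.

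**Figure D3:**
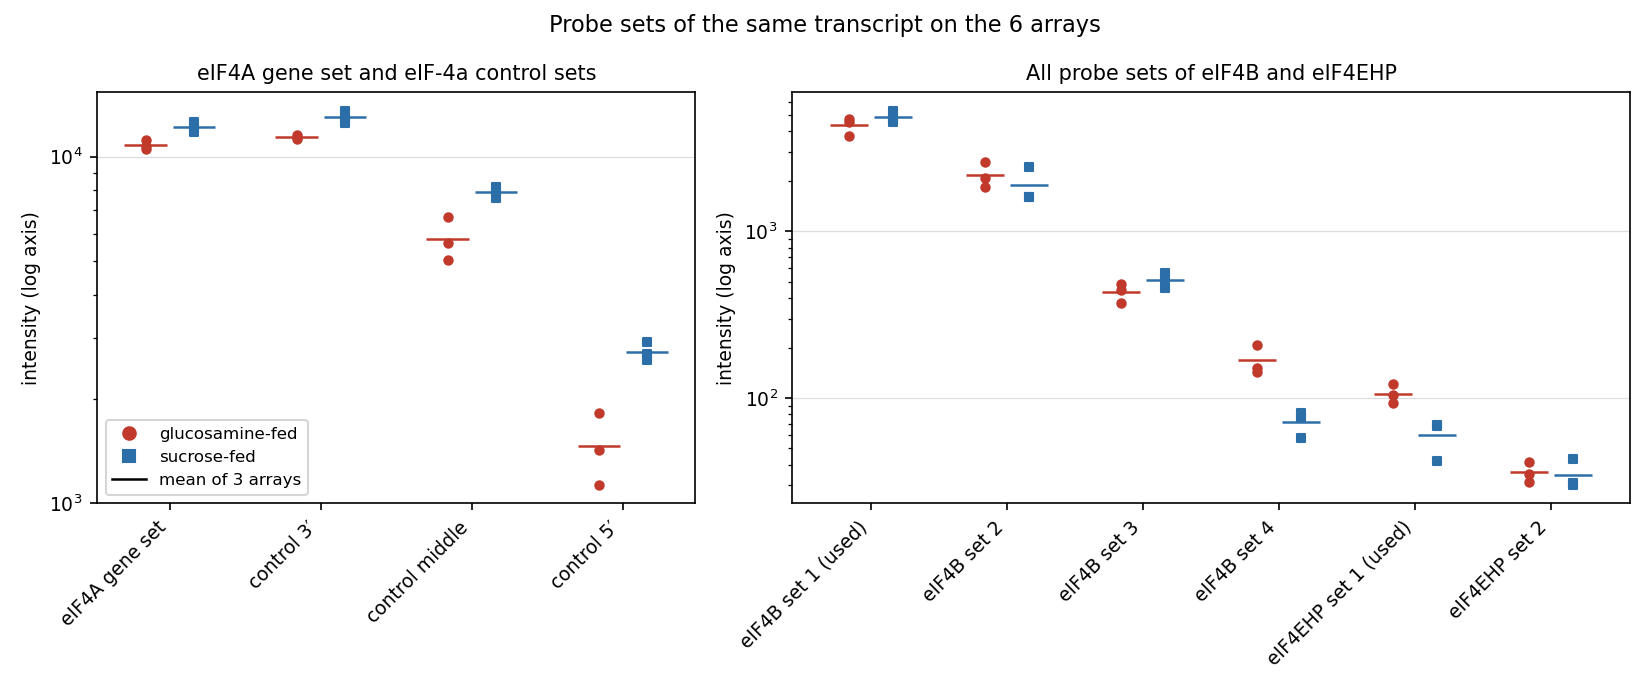
Intensity (log axis) on the 6 arrays of probe sets that read the same transcript, with circles for glucosamine-fed and squares for sucrose-fed flies and lines at the means of 3 arrays. On the left, the distance between the diets grows from the 3′ to the 5′ control of eIF-4a, from −0.18 to −0.92 on the log2 scale. On the right, of 4 sets of eIF4B set 4 is higher in glucosamine-fed flies, and of 2 sets of eIF4EHP the one used is.

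The remaining eIF4 genes encode paralogs of eIF4E and a relative of the helicase cofactor eIF4H, and most of their values were low. eIF4E5 had 11.6, 70.0 and 10.6 against 75.6, 111 and 57.1, and its difference of −1.25 ± 0.48 (SE; limma adjusted p = 0.122) was the most negative of the members. Glucosamine array 2 lay within the sucrose range, and without that array the difference was −1.81 and passed (adjusted p = 0.0136, with 0.0136 to 0.314 over 15 alternatives). eIF4E4 had 31.4 to 55.5 against 54.0 to 118 (−0.70, adjusted p = 0.143). eIF4E3, known for its role in the testis, had 15.4 to 65.1 against 31.9 to 80.2 (−0.40), again with overlap. The testis markers summed to 249 to 695 against 403 to 878 in these female samples, overlapping as well, and their part in these values was not tested. eIF4E6, eIF4E7 and eIF4H2 were at 7.83 to 24.1 on all arrays, with differences of 0.01, −0.26 and 0.00. For eIF4E7, 2 further probe sets are shared with another gene and were left out.

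None of the 5 other factors passed in limma, and 1 of them had an unadjusted p under 0.05, against 32.9% of everything tested. This was eIF2A, an alternative initiator tRNA carrier that is no subunit of eIF2, with intensities of 2934, 3156 and 3382 on the glucosamine arrays and 4774, 4357 and 3732 on the sucrose arrays. Its groups did not overlap, and the difference was −0.43 ± 0.15 (SE; limma adjusted p = 0.0934). eIF1, which guards start codon choice, had 10433, 12423 and 13169 against 14266, 11970 and 12728, with overlap and a difference of −0.12 (95% interval −0.48 to 0.25). eIF5, which activates the GTPase of eIF2, had 1439 to 1517 against 1548 to 1753 (−0.14), and eIF5B had 546 to 583 against 425 to 525 (0.27). Both had separated groups with small differences. eIF2D, a factor of reinitiation and recycling, had 415 to 525 against 429 to 462 (0.07).

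By group, the medians were 0.30 for eIF2 and eIF2B, −0.30 for eIF3, −0.17 for eIF4 and −0.12 for the others. The last of these was 0.030 under cyclic loess and −0.0015 under quantile normalization, and that of eIF4 was −0.037 and −0.068, so the sign of the others depended on the scaling. By array, the median of the 16 eIF3 genes relative to their sucrose means was −0.40, −0.29 and −0.29 in glucosamine-fed and 0.12, −0.07 and −0.09 in sucrose-fed flies. For the 12 eIF4 genes it was −0.25, −0.12 and −0.11 against 0.09, 0.04 and −0.12. The glucosamine arrays of eIF3 thus all lay below its sucrose arrays. For eIF4, glucosamine array 3 lay barely above sucrose array 3 (−0.1129 against −0.1154). The other glucosamine arrays of eIF4 lay below all its sucrose arrays. These medians have no test of their own.

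**Figure D4:**
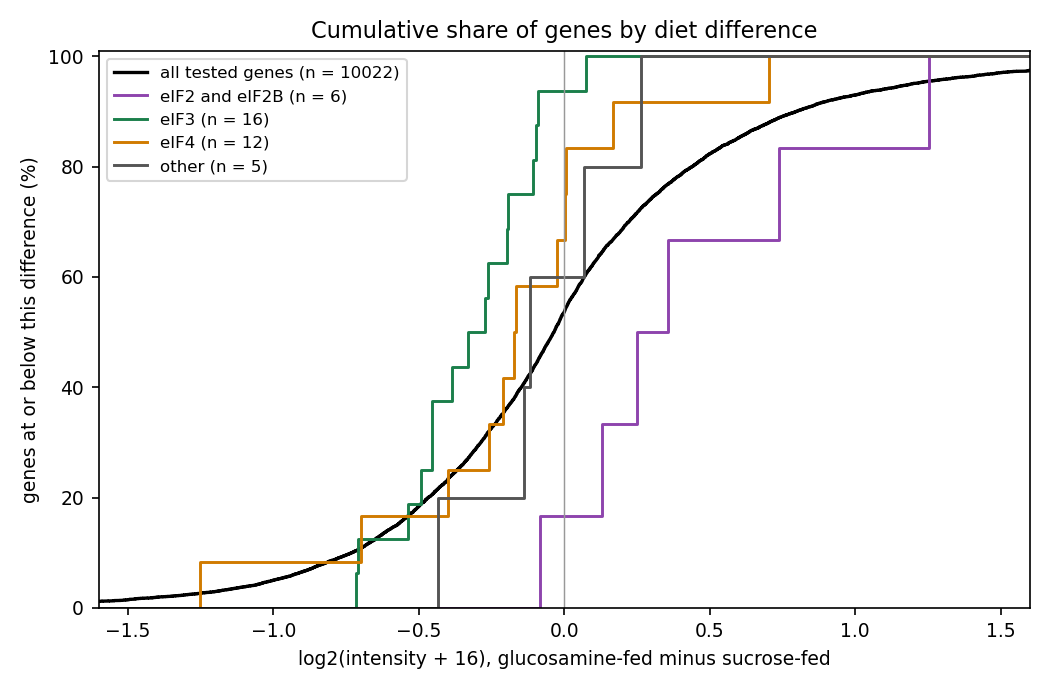
Cumulative share of genes (percent) by their difference between the diets, on the log2(intensity + 16) scale, for the 4 groups of factors and for all 10022 tested genes. The line of eIF3 reaches 93.8% at a difference of 0 against 53.6% of all tested genes, and that of eIF2 and eIF2B reaches 16.7%. Differences beyond 1.6 in either direction are outside the axis.

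Other translation genes were compared in 4 lists, of initiation control, poly(A) and cap binding, elongation, and termination with ribosome rescue. Of 34 tested genes in them, 7 rose, 4 fell and 23 did not pass, with a median of 0.06, so 32.4% was called against 18.6% of everything tested. None of the 4 falls passed in any fit without 1 array. Among regulators of initiation 4 of 17 rose and 3 fell, against 9.92% called higher and 8.64% called lower of everything tested. The lists were chosen with earlier results of these data known and have no test of their own. PEK, the kinase that phosphorylates eIF2alpha in endoplasmic reticulum stress, had 290.5, 183 and 519 on the glucosamine arrays and 123, 95.4 and 121 on the sucrose arrays. The groups did not overlap, and the difference was 1.32 ± 0.35 (SE; limma adjusted p = 0.0440). Of the 6 fits with an array left out it passed in that without glucosamine array 2 (adjusted p = 0.0195, with 0.0195 to 0.131 over 16 alternatives), and it was 0.94 without glucosamine array 3. Without both arrays that stood apart the difference of PEK was 1.00 (limma adjusted p = 0.116). Gcn2, the kinase of the same site in amino acid shortage, differed by 0.18, and crc, the fly ATF4 gene whose translation responds to these kinases, by 0.13, and neither passed (adjusted p = 0.518 and 0.499). PPP1R15, the phosphatase subunit that reverses the phosphorylation, differed by 0.40 (adjusted p = 0.125). Thor, the eIF4E-binding protein gene, was not analysed here.

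NAT1, the fly gene related to eIF4G that lacks the eIF4E-binding part and serves cap-independent initiation, had the smallest p of the initiation regulators. Its intensity was 6316, 5788 and 7127 on the glucosamine arrays and 3321, 2471 and 2757 on the sucrose arrays. The groups were far apart, and the difference was 1.17 ± 0.17 (SE; limma adjusted p = 0.00679), with adjusted p from 0.00396 to 0.0339 over 16 alternatives and 0.0487 without both arrays that stood apart. The other rises were those of REPTOR (0.98) and scyl (0.87), both of the TOR pathway that governs cap-dependent initiation. With an array left out in turn REPTOR passed in 2 of 6 fits (adjusted p up to 0.0794) and scyl in 6 of 6. Without both arrays that stood apart neither passed, and NAT1 was the only gene of the 4 lists that did. The falls were those of brat (−0.94), which works with eIF4EHP in repression, Pdcd4 (−0.65), an inhibitor of eIF4A, and larp (−0.47), which binds mRNAs under TOR control.

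In the other lists, no poly(A) or cap-binding gene of 5 passed in limma, 1 had an unadjusted p under 0.05, and the smallest p values were those of Cbp20 (−0.49, adjusted p = 0.114) and Pabp2 (−0.39, adjusted p = 0.314). Of 5 elongation genes eEF1gamma fell by 0.49 (limma adjusted p = 0.0492), and eEF5, the gene long called eIF5A, differed by −0.11. Of 7 genes of termination and rescue 3 rose, against 9.92% called higher of everything tested. Upf1, the helicase of nonsense-mediated decay, had 307, 204 and 298 against 66.5, 89.4 and 77.8, a difference of 1.59 ± 0.20 (SE; limma adjusted p = 0.00492), and passed in all 16 alternatives, but not without both arrays that stood apart (1.42, adjusted p = 0.0601). HBS1, a partner of pelo in ribosome rescue, rose by 0.92, and eRF3, the release factor GTPase, by 0.70 (adjusted p = 0.0295 and 0.0497). When 1 array at a time was left out, HBS1 passed in 2 of 6 fits and eRF3 in 1.

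**Figure D5:**
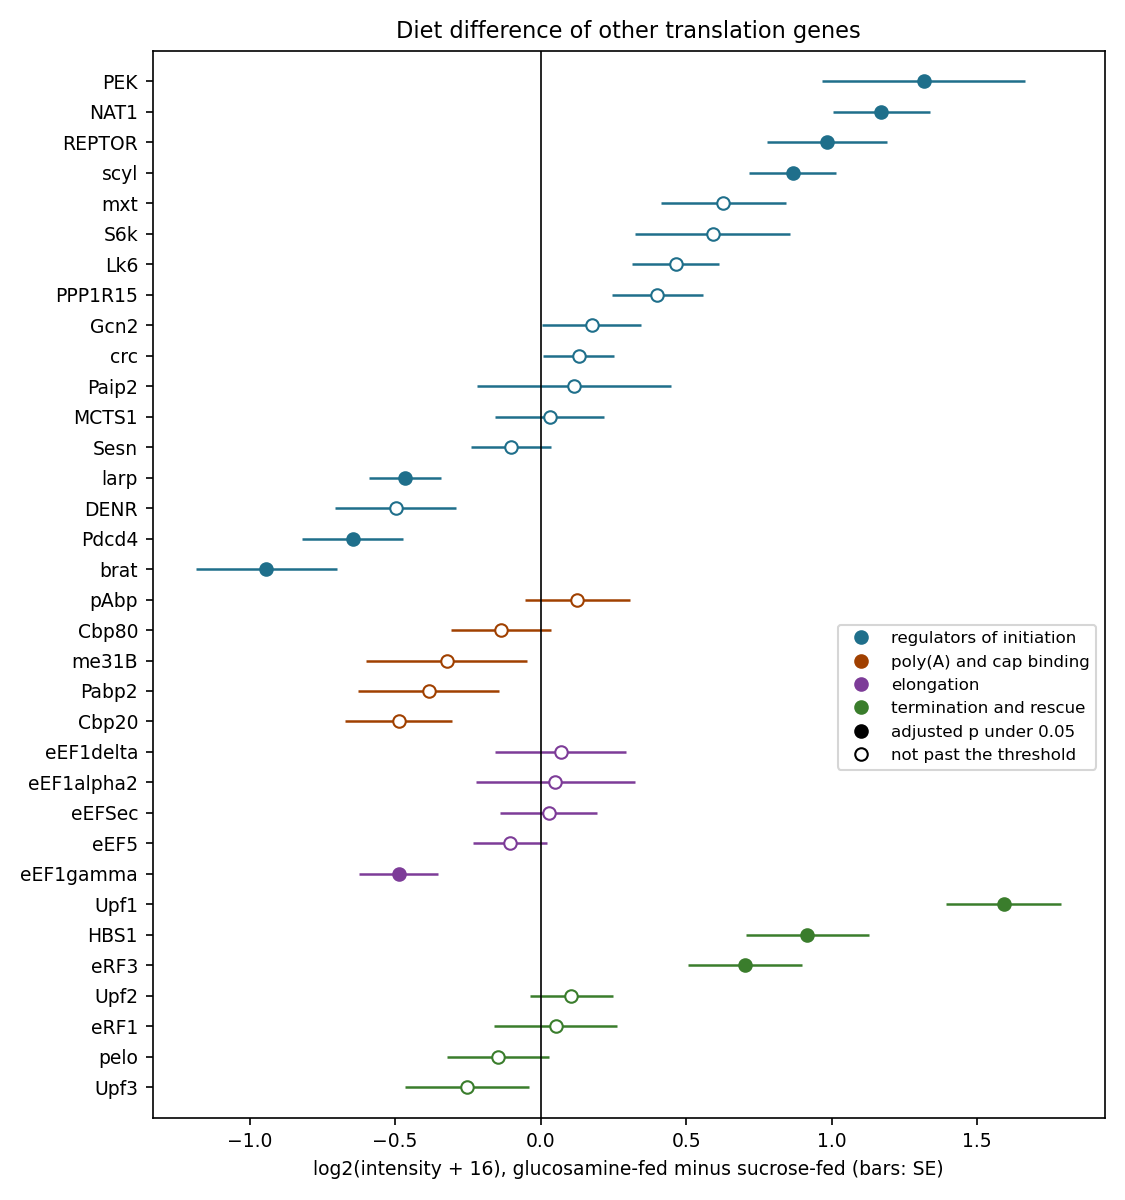
Difference between the diets of 34 other translation genes in 4 lists, as log2(intensity + 16) in glucosamine-fed minus sucrose-fed flies, with the SE of the fit as bars. Filled points mark adjusted p under 0.05, from Upf1 at 1.59 and PEK at 1.32 to brat at −0.94.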

How the data were processed

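For every probe set of each array the authors deposited an intensity, which is linear. RNA was purified and biotinylated cRNA prepared by the standard Affymetrix method, per the labels' protocols, and how values were summarised, background-corrected and normalized is not given in the sources used here. These values were used as deposited, since the arrays had like distributions. Of 18952 probe sets, 183 controls and 402 with several symbols were left out, 13647 had 1 symbol and 4720 had none. A gene's probe set of highest mean stood for it, and a filter removed the dimmest 40%. log2(intensity + 16) was computed from the deposited intensities and fitted in limma 3.58.1 (lmFit, eBayes; R 4.3.3), two-sided, without a block, with Benjamini-Hochberg adjustment over 10022 and a threshold of 0.05. The fit was tested on simulated data. With 3 arrays a group the smallest p of an exact two-sided permutation test is 0.1, and the number of arrays limits the precision.

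The members and lists were chosen with earlier results of these data known. By rule, arrays' values are given for members that passed and for the member with the smallest p and that with the highest mean in each group, and other members by ranges. PEK, Gcn2 and crc are named whatever their result, and other translation genes where they passed or had 1 of the 2 smallest p values of a list. A ranking of genes by correlation with the members was not made, because the arrays fall into separate groups by diet. The array values of eIF4E5, PEK, NAT1 and Upf1, and the naming of PPP1R15 and eEF5, go beyond this rule and were chosen after their values were seen. Same-numbered arrays did not deviate together (r = 0.02, −0.12 and −0.05 for the 3 numbers). The alternatives were 3 normalizations, 2 filters, averaging the probe sets of each gene, a variance trend with robust prior, the replicate block, array weights, a pseudocount of 1 and each array left out in turn. Plots used matplotlib 3.10.9 and pandas 2.3.3 under Python 3.11.15.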

Additional observations from a re-analysis of the deposited data

How the results depend on the processing

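With 1 array left out in turn, 0 to 1 of the members were called higher and 0 to 3 lower, 0 to 1 of eIF2 and eIF2B higher, 0 to 3 of eIF3 lower and 0 to 1 of eIF4 lower. The 3 eIF3 genes lower without sucrose array 3 were eIF3e, eIF3i and the dim paralog eIF3f2, and not eIF3l. Over these fits the median was 0.20 to 0.44 for eIF2 and eIF2B, −0.36 to −0.25 for eIF3, −0.13 to −0.018 for the other factors and −0.21 to −0.12 for all members, all tested genes gave 498 to 831 higher and 288 to 635 lower, and the translation lists 3 to 6 higher and 0 to 0 lower. Quantile normalization gave medians of −0.068 for eIF4 and −0.0015 for the other factors, and 2 lower in the translation lists. Median centring gave a median of −0.085 over all tested genes. Cyclic loess gave medians of −0.037 for eIF4, 0.030 for the other factors and −0.064 for all members, and 1 lower in the lists, as did a pseudocount of 1. Without a filter 0 members, and so 0 of eIF2 and eIF2B, were higher, the median of all tested genes was −0.0077, and the lists had 3 higher and 2 lower. The filter on 60% and array weights each called 2 members higher, 1 of them in eIF4. The variance trend called 5 members lower, all 5 in eIF3. With the replicate block 0 members were higher and 0 lower (0 of eIF2 and eIF2B, 0 of eIF3). Of all tested genes 593 were then higher and 406 lower, with 0 lower in the lists. The labels do not tell whether arrays with the same number form pairs. Without glucosamine array 3 and sucrose array 1, added after seeing the data, 0 members were higher and 0 lower, with 211 higher and 120 lower of all tested genes and 1 higher and 0 lower in the lists. At an unadjusted p under 0.05, also added, 2 members were higher and 9 lower, with 6 lower in eIF3, 1 higher and 2 lower in eIF4 and 1 lower among the others, against 1661 higher and 1638 lower of all tested genes. The cause of these changes was not tested, and the fits that leave arrays out also had fewer arrays.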

Other observations

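eIF6, which keeps the large ribosomal subunit from joining too early and acts in its biogenesis, was not counted among the initiation factors here. Its intensity was 2827 ± 654 in glucosamine-fed and 629 ± 142 in sucrose-fed flies (SD, n = 3 each), a log2 difference of 2.14 ± 0.23 (SE; limma adjusted p = 0.00338), and it passed in all 16 alternatives.

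The genes next to the 4 factors that passed were also looked up, 2 protein-coding genes on either side in the RefSeq order. Of these 16 neighbours 11 were tested and 1 passed, ND-SGDH near eIF3l, a complex I subunit gene with a log2 difference of −0.59 (limma adjusted p = 0.0229), against 18.6% of everything tested. For eIF2beta 1 of 4 neighbours was tested, Tsf2, with 0.44 (adjusted p = 0.0995). For eIF3i the tested neighbours CG34125, Scox and Polr1C had 0.02, −0.59 and 0.61, and none of them passed.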
